A study of Mus musculus with 20 samples.

Results

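Insulin receptor signalling was followed through 10 genes in the livers of adult mice whose dams had spent pregnancy at different ambient temperatures. The genes were chosen by their place in the pathway, with earlier results of these data known. They were found by their symbol in the array annotation: the receptor Insr, its substrates Irs1 and Irs2, the phosphoinositide 3-kinase subunits Pik3ca and Pik3r1, the kinases Akt1 and Akt2, the transcription factor Foxo1, and 2 brakes on the receptor, Grb14 and Ptpn1. Each was measured by 1 transcript cluster, a set of probes summarised to a single value, among 22206 clusters, of which 19572 carried 1 gene symbol and 2634 carried none. All 10 stood above the mean of the negative control probes on 20 of 20 arrays.

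The study used Affymetrix arrays on liver RNA of 20 male C57BL/6NCr mice aged 4 to 5 months, with 5 animals for each maternal temperature. In the cold groups the dams were acclimated to 10 °C or to 18 °C for 2 weeks before breeding. Dams of the warm group spent 3 weeks at 30 °C, and dams of the control group were kept at 23 °C, the usual temperature of the animal house. Sires met the temperature of their breeding pair for 3 days. From the day of birth every dam and pup lived at 23 °C, and the offspring ate standard chow. They are called 10 °C, 18 °C, 30 °C and 23 °C offspring here. The labels name single animals but neither their litters nor the feeding state at tissue collection. Temperature was applied to the dams, and the p-values treat every animal as independent. They can therefore be too small if some animals of a group were littermates.

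Insulin binding turns on the tyrosine kinase of its receptor, which phosphorylates the substrates Irs1 and Irs2. These recruit phosphoinositide 3-kinase, whose lipid product brings AKT to the membrane, where it is activated. In hepatocytes active AKT phosphorylates FOXO1 and keeps it out of the nucleus, which lowers transcription of gluconeogenic genes, while other branches raise lipid synthesis. Much of this relay runs through phosphorylation, which RNA levels do not report.

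The promoters of both substrate genes are shown because Irs2 in particular is known as a gene that FOXO1 activates in fasting liver. The windows run from 250 bases before to 50 bases after the RefSeq transcription start in the GRCm38.p6 build, 5′ to 3′ on the strand of the gene. The capitals mark TGTTTTG, the reverse complement of the FOXO element CAAAACA.
Irs1, chr1:82291390-82291689, minus strand: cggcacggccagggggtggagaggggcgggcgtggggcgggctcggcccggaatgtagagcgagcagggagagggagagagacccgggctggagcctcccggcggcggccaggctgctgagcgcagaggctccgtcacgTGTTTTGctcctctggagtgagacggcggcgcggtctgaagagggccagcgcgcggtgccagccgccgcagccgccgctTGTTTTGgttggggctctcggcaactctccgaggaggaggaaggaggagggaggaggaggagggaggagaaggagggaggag
Irs2, chr8:11008880-11009179, minus strand: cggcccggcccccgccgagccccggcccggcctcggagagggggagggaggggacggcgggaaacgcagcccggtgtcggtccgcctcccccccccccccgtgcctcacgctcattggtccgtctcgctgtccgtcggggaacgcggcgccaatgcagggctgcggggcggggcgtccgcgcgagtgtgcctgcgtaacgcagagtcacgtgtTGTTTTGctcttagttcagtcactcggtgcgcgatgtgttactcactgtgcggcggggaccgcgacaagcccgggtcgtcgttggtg
The element lay 111 and 32 bases before the start of Irs1 and 37 bases before the start of Irs2. Both strands were searched for CAAAACA and GTAAACA in 14 windows of 9 of the 10 genes. GTAAACA was found in 1 of them, 161 bases before the first start of Akt1, and no other window held either motif. Among all 32851 mouse windows of this length, 6.28% held CAAAACA and 3.65% held GTAAACA. The E-box CACGTG, looked for after both windows had been read, was also present in the Irs1 and Irs2 windows and in no other member window, against 7.15% of all windows. In Irs1 it shared 2 bases with the first capital stretch. These matches describe letters, not bound factors.

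Values are log2 expression, so a difference of 1 is a doubling. Differences were tested with limma across all 22206 clusters and all 20 arrays, with Benjamini-Hochberg adjustment over all clusters and a threshold of 0.05. No insulin signalling gene passed in any of the 6 comparisons between groups, in the F-test over the 4 groups or in the test for a slope on maternal temperature. The share of all clusters that passed was 0.00901% for 10 °C against 23 °C offspring, which is 2 clusters, and 0% in every other test. F-test adjusted p-values of the 10 genes (limma) lay between 0.580 for Pik3ca and 0.972 for Foxo1.

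At an unadjusted p under 0.05 the counts of the 10 genes, each beside the share of all clusters, were as follows. For 10 °C against 23 °C offspring 1 gene was under it, beside 11.6% of clusters. For 18 °C against 23 °C offspring it was 0 genes beside 9.25%, and for 30 °C against 23 °C offspring 0 genes beside 4.84%. Between the temperature groups it was 2 genes beside 6.76% for 10 °C against 30 °C offspring, 0 genes beside 8.21% for 18 °C against 30 °C offspring, and 2 genes beside 8.1% for 10 °C against 18 °C offspring. The F-test had 0 genes beside 9.86%, and the slope 2 genes beside 8.15%. These comparisons share arrays, so their counts are not separate observations.

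The median difference of the 10 genes from 23 °C offspring was 0.20 in 10 °C offspring, 0.03 in 18 °C offspring and 0.04 in 30 °C offspring. The medians over all clusters were 0.00, −0.00 and −0.01 in the same order of groups. In 10 °C offspring 7 of the 10 genes had a mean above that of 23 °C offspring, beside 50.4% of all clusters. In 18 °C and in 30 °C offspring 6 did, beside 49.6% and 48.7%. The median absolute difference of the 10 genes was 0.22, 0.10 and 0.14 in 10 °C, 18 °C and 30 °C offspring, beside 0.17, 0.15 and 0.13 over the 10416 clusters above the negative controls.

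**Figure D1:**
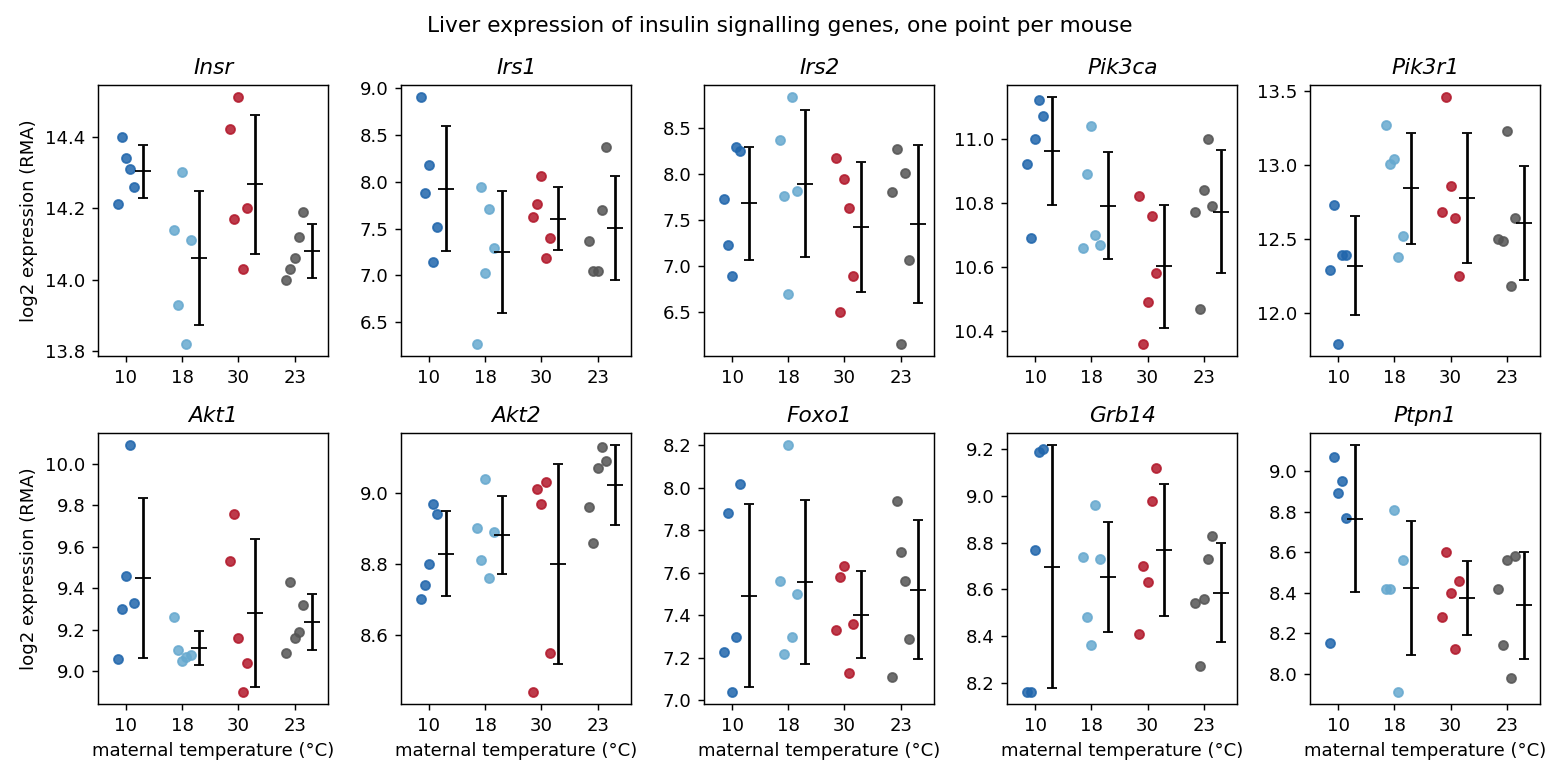
Log2 expression (RMA) of the 10 genes in each animal, by maternal temperature in °C, with the mean and SD of 5 animals beside the points and a separate vertical scale for each gene. Groups overlap in every panel, except that all 5 Insr values of 10 °C offspring (14.21 to 14.40) lie above all 5 of 23 °C offspring (14.00 to 14.19).

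Insr, the receptor itself, had the most even values of the 10 genes. It read 14.21, 14.40, 14.34, 14.31 and 14.26 in 10 °C offspring, 14.14, 13.93, 14.30, 13.82 and 14.11 in 18 °C offspring, and 14.42, 14.17, 14.51, 14.03 and 14.20 in 30 °C offspring, against 14.00, 14.03, 14.06, 14.12 and 14.19 in 23 °C offspring. All 10 °C offspring were above all 23 °C offspring, whereas the 18 °C and 30 °C groups each overlapped the controls. The mean was 14.30 ± 0.07 in 10 °C offspring and 14.08 ± 0.08 in 23 °C offspring (SD, n = 5 each), a difference of 0.22 with a 95% interval of −0.03 to 0.48 and a limma adjusted p of 0.486. Groups without overlap were found for 2.45% of all clusters in this comparison, and for 1 of the 10 genes.

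In the other comparisons no insulin signalling gene had groups without overlap. The shares of all clusters were 1.81% for 18 °C and 0.752% for 30 °C against 23 °C offspring, 0.982% for 10 °C and 1.41% for 18 °C against 30 °C offspring, and 1.42% for 10 °C against 18 °C offspring. The background control probes had array means of 3.71 ± 0.02 in 10 °C offspring and 3.65 ± 0.02 in 23 °C offspring (SD, n = 5 each). In 18 °C offspring they averaged 3.71 ± 0.04, with an Insr mean of 14.06. In 30 °C offspring they averaged 3.66 ± 0.06, with an Insr mean of 14.27. Once the array background entered the fit as a covariate, the Insr difference between 10 °C and 23 °C offspring was 0.13. After group means were subtracted, Pearson's r of Insr with the background was 0.412, and −0.058 without the 2 arrays farthest in background. What part the background had in the Insr difference was not tested.

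Irs1 and Irs2, the docking proteins between receptor and kinase, varied far more from animal to animal. Irs1 read 8.90, 7.88, 8.18, 7.14 and 7.52 in 10 °C offspring, 6.27, 7.94, 7.03, 7.71 and 7.29 in 18 °C offspring, and 7.62, 7.76, 8.06, 7.19 and 7.40 in 30 °C offspring, against 7.37, 7.05, 7.05, 7.70 and 8.37 in 23 °C offspring. The highest value was from a 10 °C animal and the lowest from an 18 °C animal, and all groups overlapped. Irs1 averaged 7.92 ± 0.67 in 10 °C offspring and 7.25 ± 0.65 in 18 °C offspring (SD, n = 5 each), a difference of 0.68 with a 95% interval of 0.02 to 1.33, an unadjusted p of 0.044 in limma and an adjusted p of 0.611. That unadjusted p stayed under 0.05 in 14 of 20 fits without 1 array, and not without animal 2, 4 or 5 of the 10 °C group or animal 1, 4 or 7 of the 18 °C group. Against 23 °C offspring the Irs1 differences were 0.42, −0.26 and 0.10 in 10 °C, 18 °C and 30 °C offspring, with limma adjusted p-values of 0.643, 0.854 and 0.9998.

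Irs2 had the widest spread of the 10 genes. It read 7.73, 7.23, 6.90, 8.29 and 8.25 in 10 °C offspring, 8.37, 7.76, 6.70, 8.83 and 7.81 in 18 °C offspring, and 8.17, 6.50, 7.95, 7.63 and 6.90 in 30 °C offspring, against 7.80, 8.27, 6.16, 8.01 and 7.07 in 23 °C offspring. Every group held both low and high animals, with values from 6.16 to 8.83 over the study. Its within-group SD of 0.749 was larger than that of 98.0% of the clusters above the negative controls, and that of Irs1, 0.567, was larger than 95.2%. The median SD of those clusters was 0.286. Differences of Irs2 from 23 °C offspring were 0.22, 0.43 and −0.03 in 10 °C, 18 °C and 30 °C offspring, each with a 95% interval of ± 0.85.

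Pik3ca encodes the catalytic subunit p110α of phosphoinositide 3-kinase. Its values were 10.92, 10.69, 11.00, 11.12 and 11.07 in 10 °C offspring, 10.66, 10.89, 11.04, 10.70 and 10.67 in 18 °C offspring, and 10.82, 10.36, 10.49, 10.76 and 10.58 in 30 °C offspring, against 10.77, 10.47, 10.84, 11.00 and 10.79 in 23 °C offspring. Most 10 °C animals were at the top and most 30 °C animals at the bottom, with overlap. The mean was 10.96 ± 0.17 in 10 °C offspring and 10.60 ± 0.19 in 30 °C offspring (SD, n = 5 each), a difference of 0.36 with a 95% interval of 0.08 to 0.64. Its unadjusted p in limma was 0.014 and its adjusted p 0.683. Over all 4 groups the fitted slope was −0.17 for each 10 °C of maternal temperature, with an unadjusted p of 0.012 and an adjusted p of 0.505. Both unadjusted p-values stayed under 0.05 in 20 of 20 fits without 1 array. With the array background in the fit they were 0.052 for the difference and 0.045 for the slope.

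Pik3r1 encodes the regulatory subunit p85α, which holds the catalytic subunit and docks it on the substrates. It read 12.29, 12.73, 11.79, 12.39 and 12.39 in 10 °C offspring, 13.27, 13.01, 13.04, 12.38 and 12.52 in 18 °C offspring, and 12.68, 13.46, 12.86, 12.64 and 12.25 in 30 °C offspring, against 12.50, 12.49, 13.23, 12.18 and 12.64 in 23 °C offspring. The 10 °C group held the lowest animal, and 3 of the 18 °C animals were above all 10 °C animals. Pik3r1 averaged 12.32 ± 0.34 in 10 °C offspring and 12.84 ± 0.38 in 18 °C offspring (SD, n = 5 each), a difference of −0.52 with a 95% interval of −0.99 to −0.05, an unadjusted p of 0.031 in limma and an adjusted p of 0.582. This held at the unadjusted level in 16 of 20 fits without 1 array, and not without animal 5 of the 10 °C group or animal 1, 3 or 4 of the 18 °C group. In 10 °C offspring the mean of Pik3ca was above that of 23 °C offspring by 0.19 and the mean of Pik3r1 differed by −0.29, with limma adjusted p-values of 0.620 and 0.659.

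Akt1 and Akt2 encode the serine kinases downstream of phosphoinositide 3-kinase, and Akt2 is the form best known for insulin action in liver. Akt1 ranged between 9.06 and 10.09 in 10 °C offspring, 9.05 and 9.26 in 18 °C offspring, and 8.90 and 9.76 in 30 °C offspring, against 9.09 and 9.43 in 23 °C offspring. One 10 °C animal stood above the rest at 10.09. Akt2 averaged 8.83 ± 0.12, 8.88 ± 0.11 and 8.80 ± 0.28 in 10 °C, 18 °C and 30 °C offspring, against 9.02 ± 0.11 in 23 °C offspring (SD, n = 5 each). All 3 means were below the control mean, by differences of −0.19, −0.14 and −0.22 with 95% intervals of ± 0.27 and limma adjusted p-values of 0.598, 0.795 and 0.978. These 3 differences share the 23 °C arrays. With the array background in the fit they were −0.05, 0.006 and −0.19. After group means were subtracted, Pearson's r of Akt2 with the background was −0.509, and −0.479 without the 2 arrays farthest in background. What part the background had in the Akt2 differences was not tested. Akt1 differed from 23 °C offspring by 0.21, −0.12 and 0.04 in the same order, with 95% intervals of ± 0.36.

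Foxo1, the transcription factor that AKT inactivates, had the flattest group means. They were 7.49 ± 0.43, 7.56 ± 0.39 and 7.40 ± 0.20 in 10 °C, 18 °C and 30 °C offspring, against 7.52 ± 0.33 in 23 °C offspring (SD, n = 5 each). Group explained 3.18% of its variance, the least of the 10 genes, and 41.2% of that of Insr, the most. The median was 21.4% over the 10 genes and 16.5% over all clusters. Its differences from 23 °C offspring were −0.03, 0.04 and −0.12 in 10 °C, 18 °C and 30 °C offspring, with 95% intervals of ± 0.43.

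**Figure D2:**
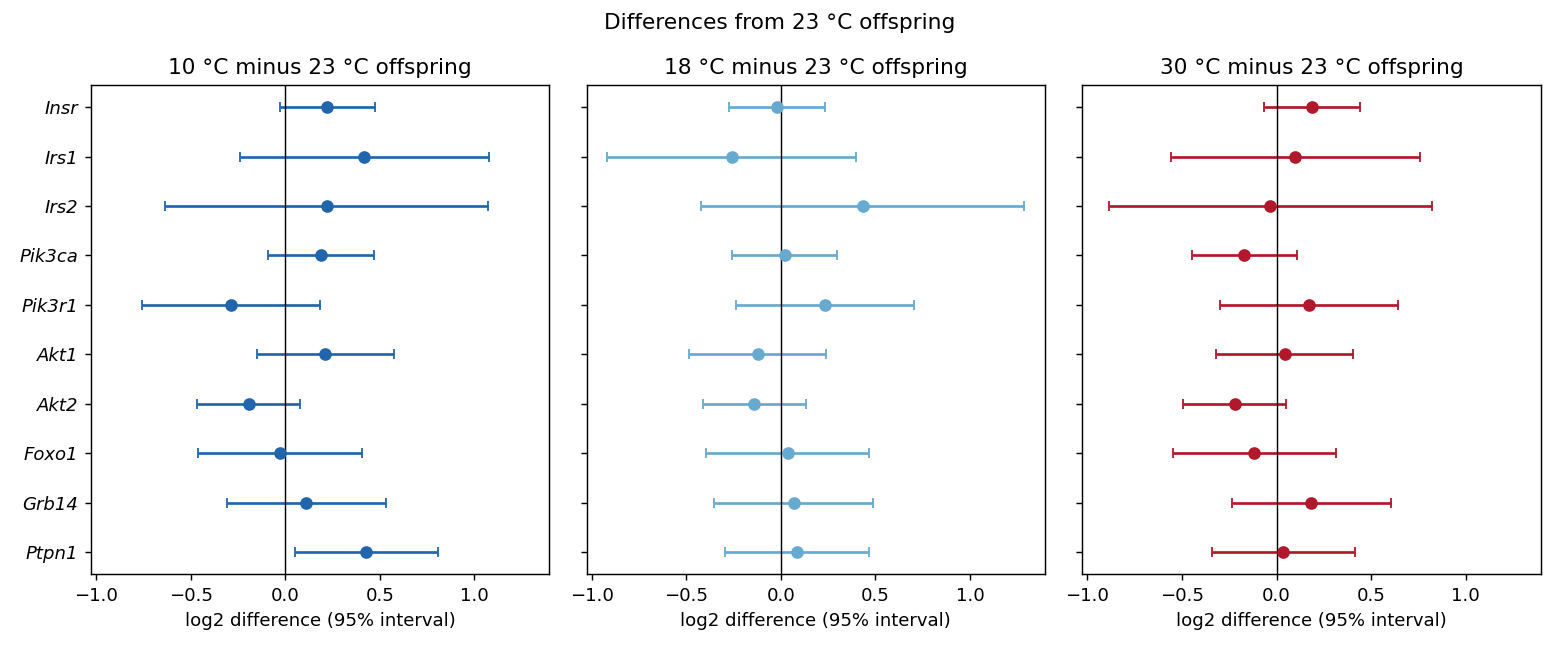
Log2 differences of 10 °C, 18 °C and 30 °C offspring from 23 °C offspring for the 10 genes, with 95% intervals from limma and 1 panel for each maternal temperature. Every interval includes 0, except that of Ptpn1 in 10 °C offspring (0.43, interval 0.05 to 0.81), and none passed after adjustment over all clusters.

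Ptpn1 encodes PTP1B, the phosphatase that removes phosphate from the activated receptor. It read 8.15, 9.07, 8.89, 8.95 and 8.77 in 10 °C offspring, 8.42, 8.42, 8.81, 7.91 and 8.56 in 18 °C offspring, and 8.28, 8.60, 8.40, 8.12 and 8.46 in 30 °C offspring, against 8.42, 8.14, 8.56, 7.98 and 8.58 in 23 °C offspring. In the 10 °C group 4 of 5 animals were above every 23 °C animal, and the fifth was among the lowest. The mean was 8.77 ± 0.36 in 10 °C offspring and 8.34 ± 0.26 in 23 °C offspring (SD, n = 5 each), a difference of 0.43, or 1.35-fold, with an unadjusted p of 0.028 in limma and an adjusted p of 0.367. The unadjusted p stayed under 0.05 in 15 of 20 fits without 1 array, and not without animal 4, 5 or 6 of the 10 °C group or animal 2 or 17 of the 23 °C group. With the array background in the fit the difference was 0.28 and the unadjusted p 0.200.

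Ptpn1 also had a difference of 0.39 between 10 °C and 30 °C offspring, with an unadjusted p of 0.042 in limma and an adjusted p of 0.725. It stayed under 0.05 in 13 of 20 fits without 1 array, and not without animal 4, 5, 6 or 8 of the 10 °C group or animal 4, 6 or 7 of the 30 °C group. Its slope was −0.20 for each 10 °C, with an unadjusted p of 0.034 and an adjusted p of 0.582, and the unadjusted p was above 0.05 without animal 4, 5, 6 or 8 of the 10 °C group or animal 7 of the 30 °C group. With the array background in the fit the unadjusted p was 0.174 for the difference and 0.175 for the slope. In 18 °C and 30 °C offspring Ptpn1 differed from 23 °C offspring by 0.09 and 0.04, with 95% intervals of ± 0.38.

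Grb14 encodes an adaptor that binds the activated receptor and blocks its kinase. It read 8.16, 8.16, 8.77, 9.19 and 9.20 in 10 °C offspring. It ranged between 8.36 and 8.96 in 18 °C offspring and 8.41 and 9.12 in 30 °C offspring, against 8.27 and 8.83 in 23 °C offspring. The SD was 0.52 in 10 °C offspring and 0.21 in 23 °C offspring, and the mean differences from 23 °C offspring were 0.11, 0.07 and 0.18 in 10 °C, 18 °C and 30 °C offspring, with 95% intervals of ± 0.42.

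The 10 genes were next compared animal by animal, after the mean of each group had been subtracted, with 100000 permutations within groups. None of the 45 pairs passed a Benjamini-Hochberg adjusted p of 0.05, and 3 had an unadjusted permutation p under 0.05. Irs2 and Ptpn1 had the strongest relation, with Pearson's r of −0.622 (permutation p = 0.00698, adjusted p = 0.314) and Spearman's rho of −0.672 (permutation p = 0.00377, adjusted p = 0.170) over 20 arrays. Animals high in Irs2 for their group were mostly low in Ptpn1, a relation that did not pass the adjustment. Without animal 4 of the 18 °C group and animal 15 of the 23 °C group, the farthest in Irs2, r was −0.521 (permutation p = 0.0390).

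Insr and Ptpn1 had an r of 0.513 (permutation p = 0.0174, adjusted p = 0.391) and a rho of 0.457 (permutation p = 0.0551). Insr and Foxo1 had an r of 0.435 (permutation p = 0.0477, adjusted p = 0.612) and a rho of 0.444 (permutation p = 0.0516). Without animal 4 of the 18 °C group and animal 6 of the 30 °C group, r was 0.471 for Insr and Ptpn1 and 0.176 for Insr and Foxo1. Over all pairs r lay between −0.622 and 0.513, and 23 of 45 were above 0. The arrays share their probes and normalisation. With the background control probes, r of the 10 genes lay between −0.509 for Akt2 and 0.412 for Insr, and was 0.302 for Ptpn1. None of these 10 relations had an adjusted permutation p under 0.05, and the smallest was 0.511. On 20 arrays this does not show that the genes were free of the background. What part it had in the correlations between genes was not tested.

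**Figure D3:**
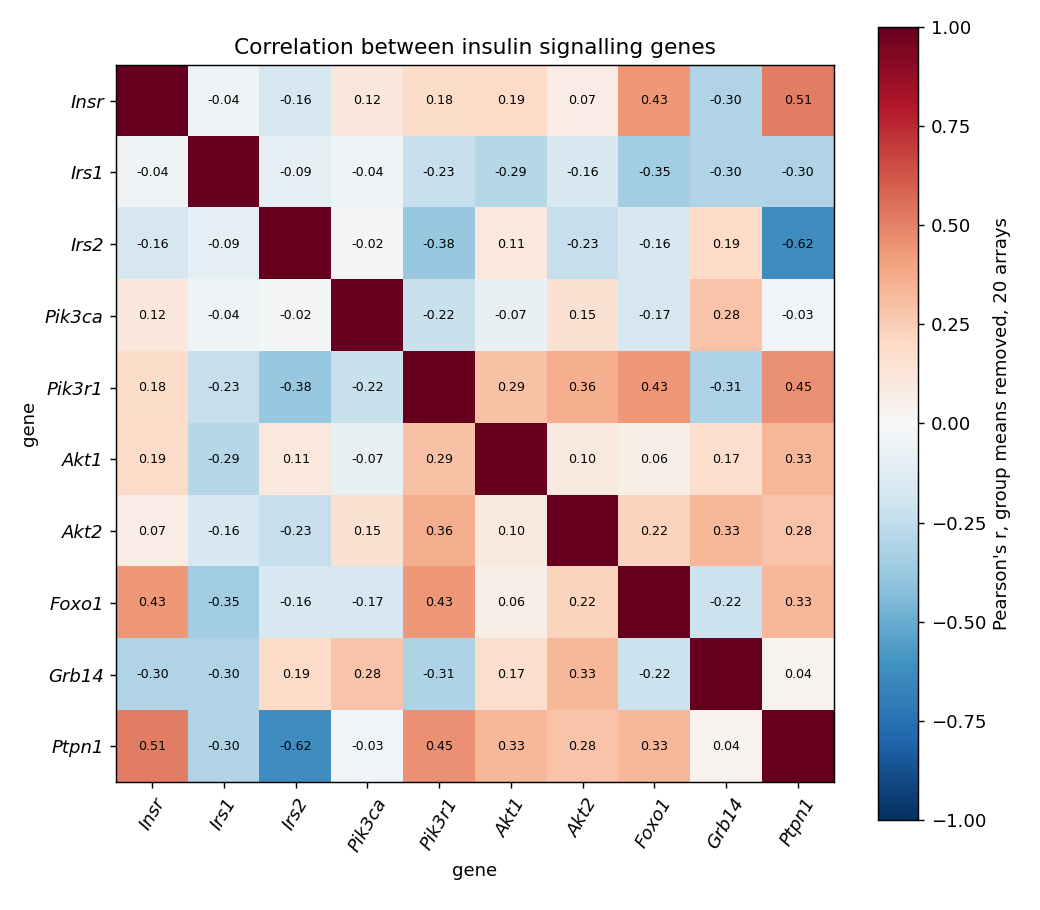
Pearson's r between the 10 genes over 20 arrays after group means were subtracted, with blue for negative and red for positive values. The strongest cell is Irs2 with Ptpn1 (−0.622), and no pair passed adjustment over the 45 pairs.

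**Figure D4:**
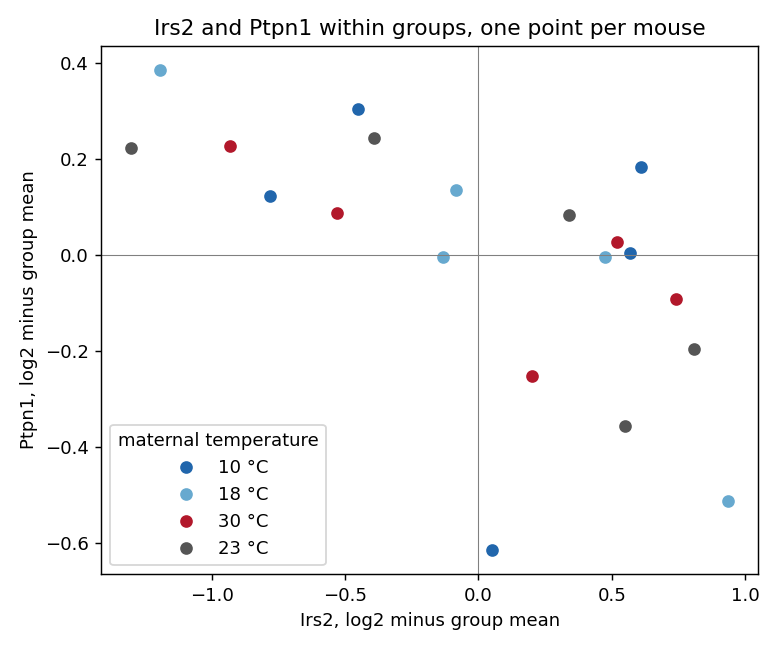
Deviation of Irs2 (horizontal) and Ptpn1 (vertical) from their group means on the log2 scale, 1 point per animal, coloured by maternal temperature. Points run down to the right over the 20 animals, with r of −0.622 and an adjusted p of 0.314.

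For each gene the most similar patterns were sought among 9412 named genes above the negative controls, as Pearson's r over the same 20 arrays with group means removed. Insr was closest to Ccnl2 (0.820) and Zfp746 (0.738), Irs1 to Lrfn3 (0.818) and Zcchc8 (0.808), and Irs2 to Dnmbp (0.779) and H2ac6 (0.772). Pik3ca was closest to Atp13a1 (0.760) and Dcaf12 (0.733), and Pik3r1 to Ccdc86 (0.870) and Nop2 (0.848). Akt1 was closest to Gclm (0.876) and Slc17a2 (0.853), Akt2 to Cul1 (0.799) and Cldn3 (0.789), and Foxo1 to Eef1a1 (0.789) and Klf10 (0.783). Grb14 was closest to Slc25a26 (0.787) and Dstn (0.772), and Ptpn1 to Coa8 (0.779) and Zfp942 (0.771). None of the 10 genes had another of them as its closest pattern. With 9412 genes searched, this does not show that the 10 genes vary apart. Only the highest positive r was sought, so a negative relation could not appear. The r values given are the highest of all 9412 correlations for each gene and serve as description.

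The wider pathway was read from 62 further genes, of which 56 had a cluster and 42 stood above the negative controls. None passed the adjusted limma test in any comparison. At an unadjusted p under 0.05, 3 were higher and 1 lower in 10 °C than in 23 °C offspring, 7.14% of the 56 beside 11.6% of all clusters, and of these 4 Trib3 alone stood above the negative controls. For 18 °C against 23 °C offspring 1 was higher and 2 lower (beside 9.25% of all clusters), with Prkcd alone above the negative controls, and for 30 °C against 23 °C offspring there were 0 (beside 4.84%). Between the temperature groups 4 were higher and 1 lower in 10 °C than in 18 °C offspring, 8.93% beside 8.1% of all clusters, 1 was higher in 10 °C than in 30 °C offspring (beside 6.76%), and 2 were lower in 18 °C than in 30 °C offspring (beside 8.21%). Above the negative controls these were 3 and 1, then 0, then 2. The F-test had 5, beside 9.86% of all clusters. The genes named next are those with the smallest F-test p in each list, 2 from each.

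Among other brakes, Trib3, a pseudokinase that binds AKT, averaged 6.19 ± 0.44 in 10 °C offspring, 5.83 ± 0.37 in 18 °C offspring and 5.80 ± 0.32 in 30 °C offspring, against 5.47 ± 0.20 in 23 °C offspring (SD, n = 5 each). Its difference of 0.72 between 10 °C and 23 °C offspring had a limma adjusted p of 0.184. Prkcd, a lipid-activated protein kinase C, averaged 7.85 ± 0.54, 7.17 ± 0.29 and 7.89 ± 0.17 in 10 °C, 18 °C and 30 °C offspring, against 7.63 ± 0.25 in 23 °C offspring, with an F-test adjusted p of 0.382. Rictor, the subunit that defines mTOR complex 2, which phosphorylates AKT, averaged 9.41, 8.99 and 9.49 in the same order, against 9.24 in 23 °C offspring. Mlst8, a subunit of both mTOR complexes, averaged 6.70, 6.96 and 6.63, against 6.97 in 23 °C offspring.

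Inppl1, a phosphatase that acts on the lipid product of the kinase, averaged 8.59, 8.95 and 8.88 in 10 °C, 18 °C and 30 °C offspring, against 8.64 in 23 °C offspring. Insrr, Igf1r and Inpp4b, the others named by this rule, had means under those of the negative control probes and their values were not read further. F-test adjusted p-values of the genes named from these lists lay at or above 0.382 in limma.

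Transcripts that respond to insulin were read from 2 more lists, and none of their genes passed the adjusted limma test either. Of 8 liver genes that FOXO1 activates, 1 was higher and 2 were lower at an unadjusted p under 0.05 in 10 °C than in 23 °C offspring (beside 11.6% of all clusters). For 18 °C against 23 °C offspring 1 was lower (beside 9.25%), and for 30 °C against 23 °C offspring 1 was lower (beside 4.84%). Between the temperature groups 1 was lower in 10 °C than in 30 °C offspring (beside 6.76%), 2 had higher means in 18 °C offspring than in 30 °C offspring (beside 8.21%), and 0 differed at this level between 10 °C and 18 °C offspring (beside 8.1%). Sesn3, a FOXO1 target whose product restrains mTOR complex 1, averaged 8.43 ± 0.25, 8.45 ± 0.27 and 8.78 ± 0.30 in 10 °C, 18 °C and 30 °C offspring, against 8.86 ± 0.22 in 23 °C offspring, with an F-test adjusted p of 0.459. Apoc3, an apolipoprotein of triglyceride-rich particles, averaged 16.79 ± 0.27, 17.02 ± 0.16 and 16.83 ± 0.36, against 17.19 ± 0.17 in 23 °C offspring.

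The second list held liver genes that insulin raises, many of them for lipid synthesis. The median difference of its 9 measured genes from 23 °C offspring was −0.52 in 10 °C offspring, 0.32 in 18 °C offspring and −0.70 in 30 °C offspring, and it was −1.08 between 10 °C and 18 °C offspring. One of the 9, Pnpla3, stood under the negative controls, and over the other 8 these medians were −0.84, 0.50, −0.76 and −1.29. The 8 FOXO1-activated genes, which insulin lowers, had medians of the same signs in these comparisons: −0.18, 0.20, −0.12 and −0.21. Between 10 °C and 30 °C offspring the signs differed, with 0.24 for the FOXO1-activated genes and −0.23 for the 9 insulin-raised genes. Thrsp, a regulator of lipogenesis, averaged 13.04 ± 2.69, 16.32 ± 1.21 and 13.91 ± 1.60 in 10 °C, 18 °C and 30 °C offspring, against 15.06 ± 1.48 in 23 °C offspring (SD, n = 5 each). Me1, the malic enzyme that supplies NADPH, averaged 14.34 ± 0.67, 15.43 ± 0.93 and 13.63 ± 1.08, against 14.75 ± 0.40 in 23 °C offspring. F-test adjusted p-values in limma were 0.422 for Thrsp and 0.369 for Me1. At an unadjusted p under 0.05, 6 of the 9 genes were lower in 10 °C than in 18 °C offspring (beside 8.1% of all clusters) and 5 had higher means in 18 °C offspring than in 30 °C offspring (beside 8.21%). Against 23 °C offspring 1 was lower in 10 °C offspring, 1 in 18 °C offspring and 2 in 30 °C offspring (beside 11.6%, 9.25% and 4.84%), and 1 was higher in 10 °C than in 30 °C offspring (beside 6.76%). The signalling genes upstream had a median difference of 0.11 between 10 °C and 18 °C offspring, with 6 of 10 higher, beside 50.1% of all clusters.

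**Figure D5:**
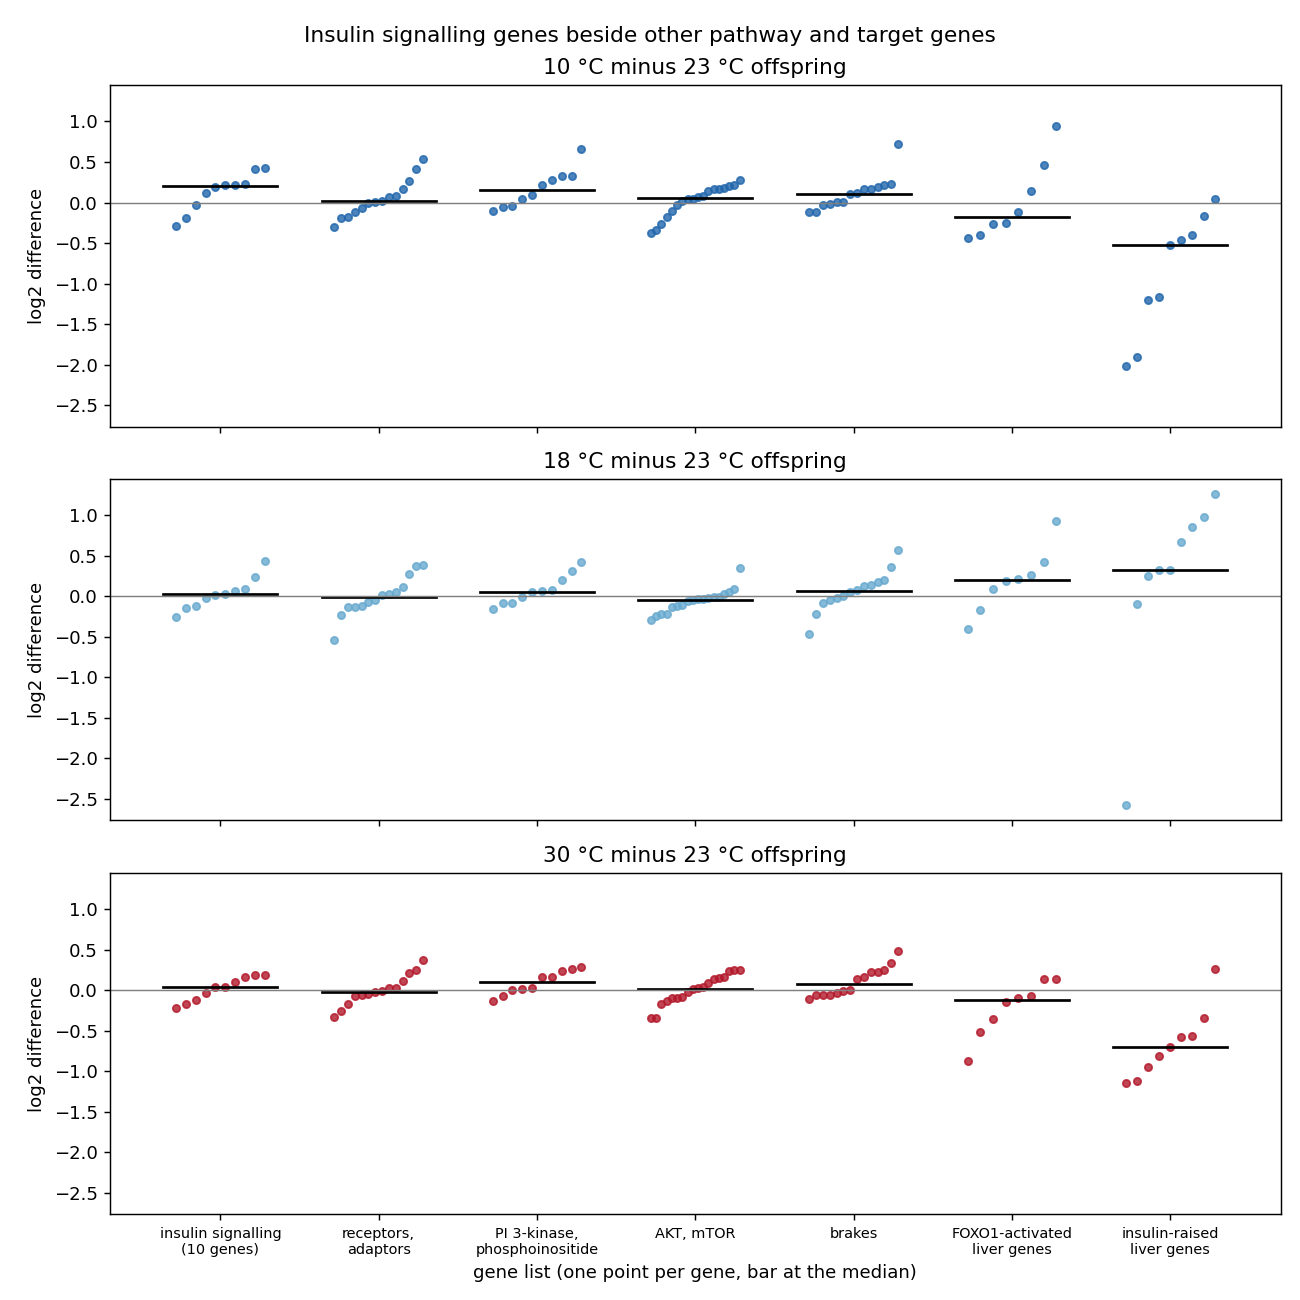
Log2 differences of 10 °C, 18 °C and 30 °C offspring from 23 °C offspring, 1 panel each, for the 10 insulin signalling genes, 4 lists of other pathway genes and 2 lists of target genes, with 1 point per gene and a bar at the median. In this order of panels the 10 signalling genes have medians of 0.20, 0.03 and 0.04. The FOXO1-activated genes have medians of −0.18, 0.20 and −0.12, and the insulin-raised genes have medians of −0.52, 0.32 and −0.70.

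The tissue read as liver, with 8 of 8 hepatocyte markers above the negative controls and list means between 18.58 and 18.77 on every array. Of 7 pancreas markers 0 stood above them, and of 7 adipocyte markers 1 did, Fabp4. All 7 Kupffer cell and macrophage markers with a cluster stood above the negative controls, and their list mean per array was 7.27 to 7.83 in 10 °C offspring, 7.23 to 7.91 in 18 °C offspring and 6.85 to 7.62 in 30 °C offspring, against 6.70 to 7.47 in 23 °C offspring. Their part in the values of the 10 genes was not tested. In bulk RNA, fewer cells of a type and less RNA per cell cannot be told apart.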

How the data were processed

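Affymetrix arrays were read for the livers of 20 mice, each animal on an array of its own. The deposited values are log2 expression made with RMA and Transcriptome Analysis Console, per the submitters' processing notes; their versions and the genome build are not given in the sources used here. Of 28846 rows, 6640 control rows were left out of the tests, and 22206 transcript clusters were kept with no filter. No further normalisation was done. Clusters were named by the platform annotation. The background level is the mean of 23 background control rows, and brightness was read against 5222 negative control rows. Array correlations were 0.987 to 0.993, and the number of arrays limits the precision.

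Differences were tested in R 4.3.3 with limma 3.58.1 (lmFit, eBayes), 1 mean per group, all 20 arrays and 16 residual degrees of freedom, with Benjamini-Hochberg adjustment. In simulated data for 10 °C against 23 °C offspring (22206 genes), 11 of 50 genes changed by log2 0.5, 38 of 50 by 1, 50 of 50 by 2 and 49 of 50 by 3 were called. Of 22006 unchanged genes 4 were called. The simulation held many large changes and independent noise for each gene, whereas 2 clusters passed in the measured comparison. The simulated shares can therefore be higher than those for the measured data. Correlations used permutations within groups. Alternatives were an intensity trend with robust variance, array weights, only the groups compared, only clusters above the negative controls, the background level as a covariate, arrays centred on their medians, animal number as a block, and each array left out. Same-numbered animals did not deviate together (11 pairs, r −0.151 to 0.110). The genes and lists were chosen with earlier results of these data known. All 10 genes are named, with 2 genes per list by the smallest F-test p and the 2 closest patterns of each gene. Promoters are RefSeq's, GRCm38.p6.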

Additional observations from a re-analysis of the deposited data

Results flagged for a closer look

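Akt1 in animal 1 of the 18 °C group stood apart from the other 4 animals of that group, at 9.26 on the log2 scale against 9.05 to 9.10. It was 1 of 40 sets of a gene and a group that were examined, and chance flags about 1 in 20 such sets. The value was close to the Akt1 mean over all arrays, 9.27, and within the range of 23 °C offspring, 9.09 to 9.43. It stood apart only from the narrow range of the other 4 animals.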

How the results depend on the processing

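The count of insulin signalling genes passing an adjusted p of 0.05 in limma was 0 in all 214 recomputed counts, over all the alternatives and tests run, with smallest adjusted p-values between 0.260 and 0.99997. The count of passing correlations between these genes was 0 with group means kept and without the 2 farthest arrays. Without the 2 farthest arrays, an alternative added after seeing the data for the next families, it was 0 for the background probes, and for Irs2 against the response genes it was 1 (Scd1, with r of 0.592), against 0 over all arrays. The gene lists were also read over genes above the negative controls alone, a choice added after seeing the data. Single differences were less stable: of 970 recomputed values for 36 differences, 47 changed sign, in 16 differences. With the array background in the fit, the 18 °C minus 23 °C difference was −0.062 for Ptpn1, −0.047 for Pik3ca, −0.048 for Foxo1 and 0.006 for Akt2, and the 30 °C minus 23 °C difference was 0.006 for Irs2. With animal number as a replicate block, which leaves 6 residual degrees of freedom and which the deviations gave no ground for, the 10 °C minus 23 °C difference was −0.203 for Irs2 and 0.082 for Pik3r1, the 18 °C minus 23 °C difference −0.202 for Ptpn1 and 0.067 for Insr, and the 30 °C minus 23 °C difference −0.303 for Ptpn1, −0.027 for Grb14 and −0.123 for Akt1; no call changed. The cause of these sign changes was not tested. Leaving out 1 array at a time gave 10 °C minus 23 °C differences of −0.106 to 0.422 for Irs2, −0.160 to 0.086 for Foxo1 and −0.014 to 0.246 for Grb14. The 18 °C minus 23 °C differences were −0.081 to 0.040 for Insr, −0.056 to 0.076 for Pik3ca, −0.126 to 0.140 for Foxo1, −0.011 to 0.142 for Grb14 and −0.012 to 0.213 for Ptpn1. The 30 °C minus 23 °C differences were −0.015 to 0.315 for Irs1, −0.359 to 0.199 for Irs2, −0.001 to 0.325 for Pik3r1, −0.078 to 0.137 for Akt1 and −0.053 to 0.098 for Ptpn1. The 10 °C minus 23 °C difference of Insr was 0.20 to 0.25 over the same fits, with unadjusted p-values of 0.070 to 0.144.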

Other observations

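Irs2 was also compared with 17 FOXO1-activated and insulin-raised liver genes within groups, a family of relations chosen after its spread between animals had been seen. Over the 20 arrays none passed a Benjamini-Hochberg adjusted permutation p of 0.05. The 2 with an unadjusted permutation p under 0.05, named after their values were seen, ran in opposite directions. Igfbp1, a secreted binding protein whose gene insulin represses, had Pearson's r of 0.524 with Irs2 (permutation p = 0.0355, adjusted p = 0.302) and Spearman's rho of 0.490 (permutation p = 0.0497). Angptl8, a feeding-induced secreted protein, had r of −0.528 (permutation p = 0.0206, adjusted p = 0.302) and rho of −0.532 (permutation p = 0.0270). The 2 genes did not stand for their lists, as 14 of the 17 relations had r above 0. Me1 (0.392) and Elovl6 (0.215), insulin-raised like Angptl8, were among these 14. Apoc3, on the FOXO1-activated list with Igfbp1, had r of −0.263. Without the 2 arrays farthest in the partner gene, r was 0.453 for Igfbp1 (permutation p = 0.108) and −0.424 for Angptl8 (permutation p = 0.131). Both kept their direction, and neither kept an unadjusted p under 0.05 on the fewer arrays. In the same alternative Scd1, a fatty acid desaturase also named after its values were seen, passed, with r of 0.592 (permutation p = 0.00152, adjusted p = 0.0258) without animals 4 and 8 of the 30 °C group. Over all 20 arrays r of Scd1 was 0.077 (permutation p = 0.766, adjusted p = 0.868), with a rho of 0.320 (permutation p = 0.195).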
